A study of Mus musculus with 79 samples.

Results

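Neuronal intermediate filaments are described here through 5 genes, Nefl, Nefm, Nefh, Prph and Ina, which were chosen by symbol from the 24033 genes of the deposited count table. All 5 were present, and all 5 passed the filter on low counts in both RNA fractions, among 18656 genes tested in IP and 16217 in Input. Intermediate filaments are unbranched polymers that fill the axon, and in large myelinated axons their number goes with calibre. Nefl encodes the light neurofilament subunit (NF-L), on which the medium (NF-M, from Nefm) and heavy (NF-H, from Nefh) subunits depend for assembly, and these larger subunits carry long, heavily phosphorylated tails that project as side arms. Ina encodes alpha-internexin, which is made early as neurons form and joins neurofilaments of central axons, and Prph encodes peripherin, a filament protein of peripheral neurons. In dorsal root ganglia (DRG), which hold the cell bodies of sensory neurons, NF-H protein is widely used as a marker of large myelinated neurons and peripherin of small ones, and neurofilament mRNA is known to decline in sensory neurons after their axon is cut.

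The tissue was L4-5 DRG of mice of the BAC-TRAP BR145-GFP line, which every group shares, naive controls included. The IP fraction was captured on beads with anti-GFP antibody, and Input is RNA of the whole ganglia. Both sciatic nerves were crushed, and ganglia were taken 1, 12, 24, 48 or 72 h or 7 d later. The numbers of IP libraries were 7 (naive), 5 (1 h), 6 (12 h), 4 (24 h), 6 (48 h), 7 (72 h) and 4 (7 d), 39 in all, and the 40 Input libraries matched them except for 5 (24 h). In this kind of line the tag is usually carried by a ribosomal protein, so that pulled-down RNA is RNA bound by ribosomes of the tagged cells. The promoter that drives it, the cells that carry it, and the animals' age, sex, number and pooling were not stated in the labels, so a p-value here reflects only how libraries varied, which may be technical. In bulk RNA, fewer cells of a type and less RNA per cell cannot be told apart.

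Total counts per library were 3614942 to 16721527 in IP and 8737964 to 22221882 in Input. Rn45s (the rRNA precursor) and Lars2 (a gene with an rRNA-like stretch) together took 1.37% to 75.1% of the counts in IP and 1.64% to 25.5% in Input, a share called the rRNA share here. Its IP group medians were 32.1% (naive), 47.7% (1 h), 35.3% (12 h), 24.7% (24 h), 18.6% (48 h), 20.9% (72 h) and 3.51% (7 d), and 6 IP libraries were over 50%. The 7 d libraries, at 1.37% to 8.16% in IP and 1.64% to 2.74% in Input, lay below all naive libraries, at 9.86% to 40.2% in IP and 4.70% to 23.6% in Input. Ddx3y, a Y-linked gene, outnumbered Xist in each 12 h library, and Xist outnumbered Ddx3y in each 48 h library. All 16 pan-neuronal markers, such as Tubb3 and Snap25, averaged over 1 CPM (counts scaled to a common library size) in every group, but in naive animals only 1 of the 16 was higher in IP than in Input and 9 were lower. Of all 19584 genes tested there, 5538 were higher and 3593 lower in IP. All 10 satellite glia and all 12 Schwann cell markers also averaged over 1 CPM in IP, where the Schwann markers summed to 3355 to 9356 CPM in naive libraries against 2339.9 to 4252 CPM in naive Input.

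In the RefSeq annotation of GRCm38.p6, Nefl spans chr14:68083863-68089095 and Nefm chr14:68119545-68125004, close together on the same chromosome. Nefh spans chr11:4938754-4948064, Prph chr15:99053579-99058978 and Ina chr19:47014681-47025327. The spans of Nefm, Nefh and Ina overlap other genes of the count table, A230070E04Rik, Ap1b1 and Nt5c2. Of the 5 members, 2 had an entry in the RefSeq promoter table of the same build, Prph and Ina, and their promoters are shown because Ina was called higher than naive at 7 d in both fractions and Prph in neither. The windows run 5′ to 3′ from 250 bases before to 50 bases after a transcription start, chr15:99054924-99055223 on the plus strand for Prph and chr19:47014431-47014730 on the plus strand for Ina. Capitals mark matches to 3 motifs searched on both strands, TATAAA as the core of the box named after it, TGACTCA as the AP-1 site and GGGCGG as the Sp1 GC box, which are held by 13.6%, 5.2% and 35.7% of 32851 promoters of this length.
Prph: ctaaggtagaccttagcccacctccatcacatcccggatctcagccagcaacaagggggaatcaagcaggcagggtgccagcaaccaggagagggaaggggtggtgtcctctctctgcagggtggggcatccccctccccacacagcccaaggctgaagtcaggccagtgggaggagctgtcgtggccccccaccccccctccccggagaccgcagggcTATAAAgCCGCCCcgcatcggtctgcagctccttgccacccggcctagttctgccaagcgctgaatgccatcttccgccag
Ina: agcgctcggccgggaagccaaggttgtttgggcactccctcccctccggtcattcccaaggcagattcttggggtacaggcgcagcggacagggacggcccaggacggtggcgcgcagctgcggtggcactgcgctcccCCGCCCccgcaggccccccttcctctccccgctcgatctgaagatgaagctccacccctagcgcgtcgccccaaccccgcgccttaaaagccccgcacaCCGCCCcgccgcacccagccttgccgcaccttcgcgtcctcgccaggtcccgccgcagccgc
The Prph window holds TATAAA at bases 220 to 225 and a GC box on the minus strand at bases 227 to 232, next to each other without overlap. The Ina window holds GC boxes on the minus strand at bases 140 to 145 and 239 to 244. The AP-1 letters are in neither window. A match is a description of these letters only.

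Levels are given as CPM on library sizes scaled by the trimmed mean of M values (TMM), and they are compared between groups of 1 gene, never between genes, whose transcript lengths were not used here. Differences are log2 changes ± SE from the quasi-likelihood test of edgeR with Benjamini-Hochberg adjustment over all genes tested, and a gene was called at an adjusted p under 0.05. Over the 6 injured times together, Nefl, Nefm, Nefh and Ina changed in IP (adjusted p = 2.5e-07, 1.29e-06, 2.38e-07 and 0.000605) and Prph did not pass (adjusted p = 0.292), where 22.1% of all genes tested were called. In Input all 5 passed, with adjusted p between 8.5e-14 and 0.00692, where 68.5% of genes were called.

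**Figure D1:**
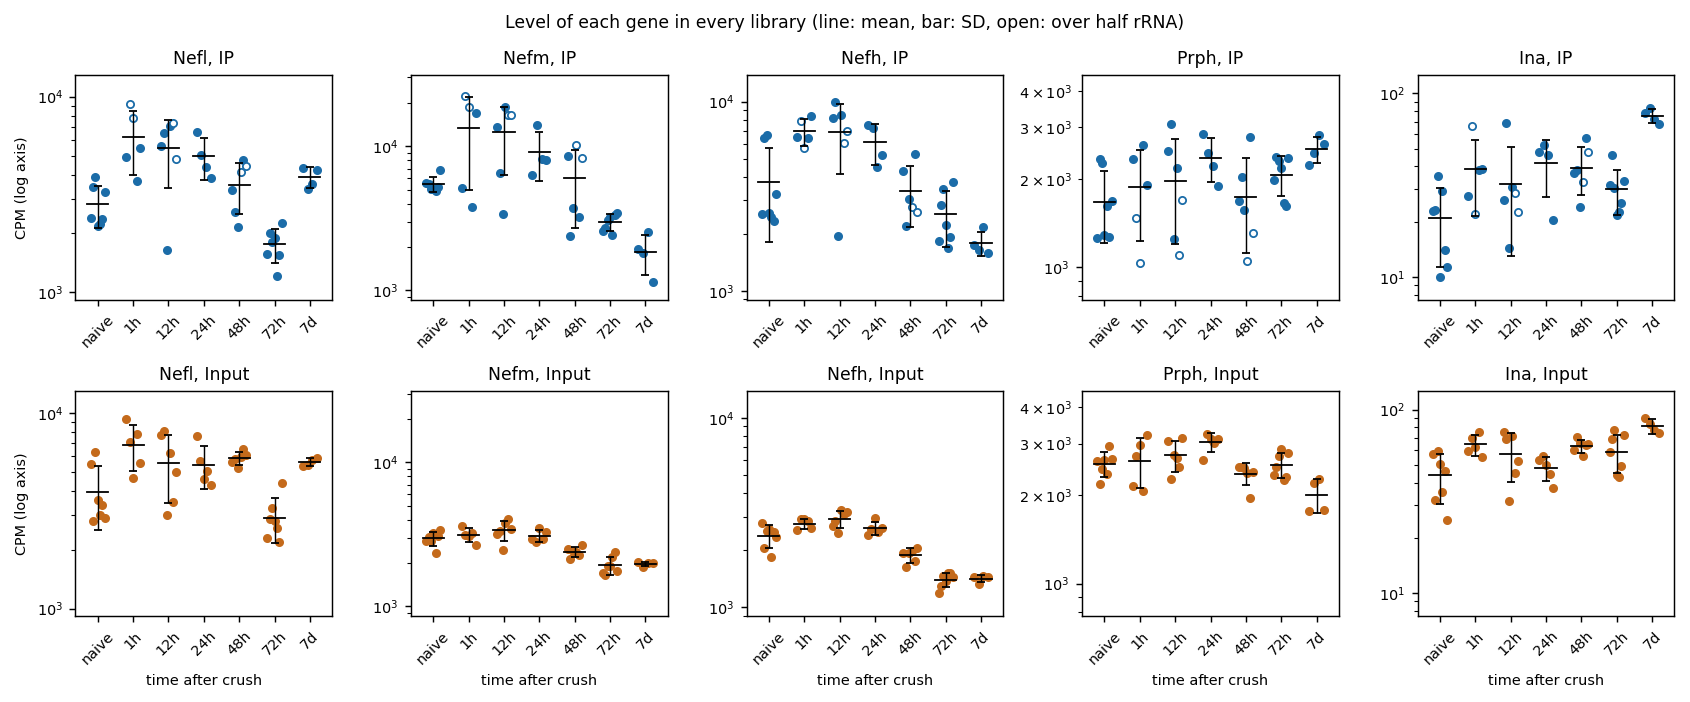
Levels of the 5 members in every library by time after crush, in CPM on a log axis, with IP in the upper row and Input in the lower. Points are libraries, open where the rRNA share was over 50%, the black line is the group mean and the bar its SD; Ina lies highest and Nefm and Nefh near their lowest at 7 d in both fractions.

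Set against naive, 6 of 30 differences were called in IP, 4 up and 2 down, and 14 of 30 in Input, 7 up and 7 down. In IP, 1 of the 5 members was called at 1 h, where 1.2% of all genes were, and 2 at 12 h, where 1.67% were. None was called by edgeR at 24 h, 48 h or 72 h, where 1.88%, 2.54% and 2.56% of genes were, although 4, 1 and 3 members had an unadjusted p under 0.05 and DESeq2 called 0, 1 and 1. At 7 d 3 members were called in IP, 1 up and 2 down, beside 20.8% of genes. In Input, the members called numbered 2 (1 h, beside 10.3% of genes), 1 (12 h, 4.98%), 4 (48 h, 36.1%), 2 (72 h, 23.4%) and 5 (7 d, 53.5%). None was called in Input at 24 h, where 11.6% of genes were, 2 had an unadjusted p under 0.05 and DESeq2 called 0. The median log2 change of the 5 members in IP was 0.95 (1 h), 0.93 (12 h), 0.72 (24 h), 0.15 (48 h), -0.59 (72 h) and 0.40 (7 d), where the median over all genes tested lay between -0.20 and 0.04.

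**Figure D2:**
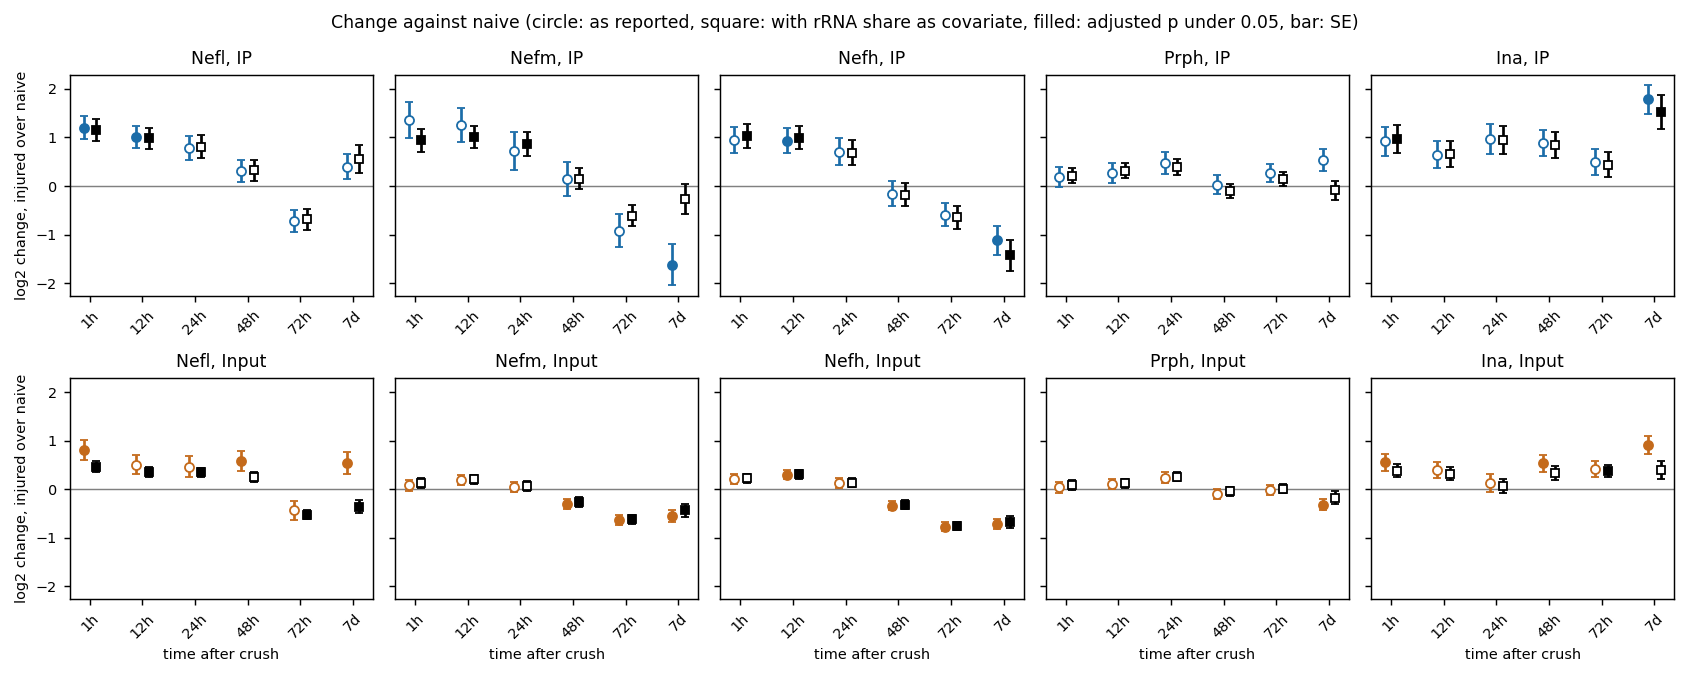
Log2 change against naive (y axis) by time (x axis) for each member, IP in the upper row and Input in the lower. Circles are the values as reported and squares those with the rRNA share as a covariate, filled where called, with the SE as a bar. Nefh at 7 d lies below 0 and Ina above 0 in both fractions in both fits. The squares at 7 d extrapolate the fitted slope, since no naive library had so low a share.

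Nefl, the core subunit, was higher than naive at 1 h and 12 h in IP. At 1 h the IP libraries had 4899, 9218, 7800.1, 3689 and 5459 CPM, and at 12 h they had a lowest value of 1656, a median of 6064 and a highest value of 7303 CPM. Naive IP had a lowest value of 2188, a median of 2385 and a highest value of 3882 CPM. The ranges overlapped at both times, and the low 12 h value was replicate 3, which stood far below the other 5 libraries of its group. Nefl rose at 1 h by 1.20 ± 0.24 (adjusted p = 0.00365), which is 2.30-fold, and at 12 h by 1.01 ± 0.23 (adjusted p = 0.00824). Without 1 h replicate 2 the 1 h change was 0.98 (adjusted p = 0.0508), no longer called, and without 12 h replicate 4 the 12 h call was lost too. Of 14 alternatives, 3 lost the 1 h call and 5 the 12 h call. With only libraries under 15% rRNA, which left 2 at 1 h and 2 naive, the 1 h change was 0.26 (adjusted p = 1). Genes that mark macrophages, fibroblasts and Schwann cells fell in IP at these times. At 1 h and 12 h, 8 and 5 of 13 macrophage genes fell, 3 and 5 of 10 fibroblast genes, and 2 and 7 of 12 Schwann cell genes. In these lists 0 rose, beside the 1.2% and 1.67% of all genes called. Schwann markers summed to 2819 to 3295 CPM at 1 h and 1399 to 3141 CPM at 12 h, against 3355 to 9356 CPM in naive IP, and the median sum of macrophage markers was 122 CPM at 1 h and 154 CPM at 12 h, against 389 CPM in naive IP. Satellite glia markers had median sums of 3098 CPM at 1 h and 2750 CPM at 12 h, against 3074 CPM in naive IP. Pan-neuronal markers had 18959 and 21024 CPM against 11598 CPM, with ranges that overlapped naive. Nociceptor markers had 2684 and 2165 CPM against 1685 CPM, and markers of large myelinated neurons 1613 and 1235 CPM against 1139 CPM. The part of cell makeup in the early changes of the members was not tested. At 24 h IP had 6570.0, 5017, 4385 and 3821 CPM, with a change of 0.78 ± 0.25 (adjusted p = 0.097), and at 48 h the change was 0.31 ± 0.23 (adjusted p = 0.654). At 72 h the group had its lowest mean, 1761 ± 343 CPM (SD, n = 7) against 2822 ± 691 CPM in naive IP (SD, n = 7), and the difference of -0.72 ± 0.22 (adjusted p = 0.0679) was not called. The 72 h difference was called in 5 of 14 alternatives, among them DESeq2, at adjusted p down to 0.0022. At 7 d IP had 4334, 3379, 3595 and 4213 CPM, a pair within the naive range and a pair above it, with a change of 0.40 ± 0.25 (adjusted p = 0.264).

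In Input, Nefl had 9261, 7134, 4650.2, 7827 and 5547 CPM at 1 h and 5329, 5419, 5757 and 5896 CPM at 7 d, against a lowest value of 2789.8, a median of 3388 and a highest value of 6341 CPM in naive libraries. The 7 d libraries lay close together inside the wide naive range. Nefl rose at 1 h by 0.81 ± 0.21 (adjusted p = 0.018), at 48 h by 0.59 ± 0.20 (adjusted p = 0.0202) and at 7 d by 0.55 ± 0.22 (adjusted p = 0.0372). At 72 h Input had a lowest value of 2187, a median of 2786 and a highest value of 4404 CPM, below naive in the median, with a change of -0.43 ± 0.19 (adjusted p = 0.1) that was called in 3 of 13 alternatives. Of those alternatives, 2 lost the 1 h call, 2 the 48 h call and 3 the 7 d call, which 1 more turned in sign. Nefl in Input moved with the rRNA share, by -0.39 ± 0.03 (adjusted p = 8.39e-14) for each doubling of that share, where 49.4% of all genes had a called slope. With the share as a covariate the 7 d change was -0.36 (adjusted p = 0.027), opposite in sign, and the 72 h change -0.53 (adjusted p = 1.13e-05). Since no naive Input library had an rRNA share as low as those at 7 d, that 7 d value rests on the fitted slope alone.

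Nefm, the medium side-arm subunit, spread widely between IP libraries early and was lower late in both fractions. At 1 h IP had 5114, 22452, 18612, 3767 and 17014 CPM, and naive IP had a lowest value of 4881, a median of 5240.0 and a highest value of 6827 CPM. The 1 h libraries fell on both sides of the naive range, and the change of 1.36 ± 0.37 (adjusted p = 0.0502) just missed the threshold, as did 1.25 ± 0.35 (adjusted p = 0.0534) at 12 h. Without 12 h replicate 3 the 12 h change was 1.44 (adjusted p = 0.0129), which is called. At 72 h IP had a lowest value of 2403, a median of 3079.9 and a highest value of 3437 CPM, with no overlap with naive, yet the change of -0.92 ± 0.34 (adjusted p = 0.182) was not called, though it was in 2 of 14 alternatives. At 7 d IP had 1924, 1825, 2542 and 1139.8 CPM, all below every naive library, and Nefm fell by 1.62 ± 0.42 (adjusted p = 0.00536) on the log2 scale, to a level 3.08-fold lower. In Input, Nefm had a lowest value of 1648, a median of 1897 and a highest value of 2370.3 CPM at 72 h and 2039.6, 1884, 1998 and 2009.9 CPM at 7 d, against a lowest value of 2360.3, a median of 3056 and a highest value of 3410.5 CPM in naive libraries. The 72 h libraries reached just into the naive range and the 7 d libraries lay wholly below it. The changes were -0.31 ± 0.11 (adjusted p = 0.0198) at 48 h, -0.63 ± 0.10 (adjusted p = 4.6e-06) at 72 h and -0.55 ± 0.12 (adjusted p = 0.000154) at 7 d.

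The IP values of Nefm moved with the rRNA share, by 0.50 ± 0.07 (adjusted p = 7.98e-08) for each doubling, where 23.8% of all genes had a called slope. With the share as a covariate the 7 d change in IP was -0.27 (adjusted p = 0.716), while the changes at 1 h and 12 h were 0.94 (adjusted p = 0.016) and 1.01 (adjusted p = 0.00407). No naive IP library had an rRNA share as low as any at 7 d, so the first of these values extrapolates the slope. With only libraries under 15% rRNA, which left 4 at 7 d and 2 naive, the 7 d change was -1.55 (adjusted p = 0.000274). The 2 libraries under 15% at 1 h had 5114 and 3767 CPM, against 5502 and 5071 CPM in the 2 naive ones. Over the 14 alternatives the 1 h change was as low as -0.22. In Input the 7 d change with the covariate was -0.44 (adjusted p = 0.00792), also an extrapolation, since the 7 d shares lay below all naive ones there too.

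**Figure D3:**
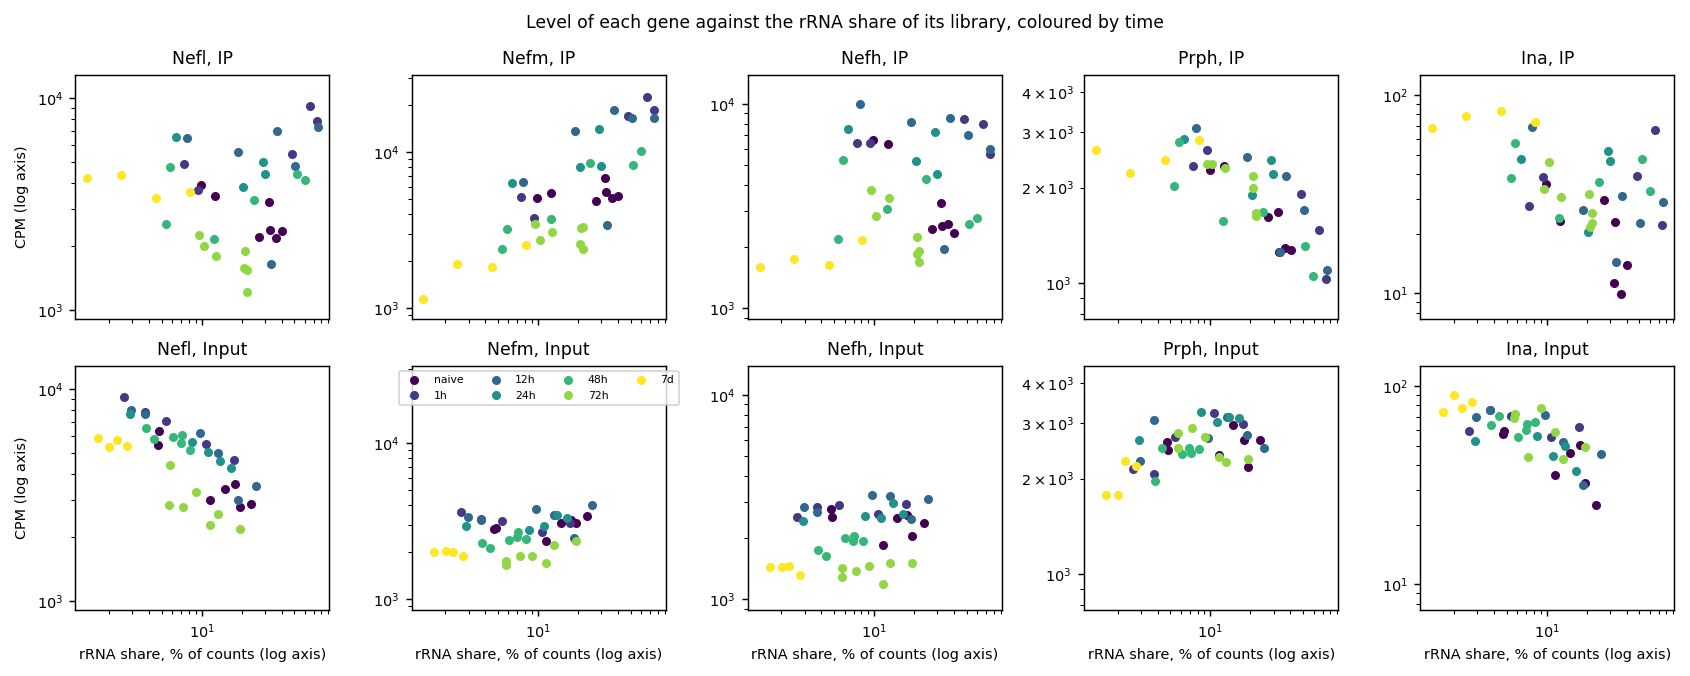
Level in CPM (y axis, log scale) against the rRNA share in percent (x axis, log scale) for each member, with IP in the upper row, Input in the lower and libraries coloured by time. Nefm in IP lies higher where the share is higher, and Nefl in Input lies lower there.

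A230070E04Rik, annotated by RefSeq as a long non-coding RNA gene, overlaps Nefm, and no strand of the reads is given, so reads in the shared stretch cannot be told apart. Its counts were a median of 2.74% of those of Nefm in IP libraries (0.586% to 42.4%) and 26.1% in Input libraries (5.01% to 50.2%). In IP its mean was 534 ± 191 CPM at 7 d (SD, n = 4) and 123 ± 83.9 CPM in naive libraries (SD, n = 7). The Nefm means there were 1858 CPM at 7 d and 5449 CPM in naive IP, so the median over all IP libraries does not describe 7 d. It rose at 7 d by 2.08 ± 0.54 (adjusted p = 0.00575) in IP and by 1.14 ± 0.47 (adjusted p = 0.0391) in Input, opposite to Nefm. With both genes summed, the Input changes were -0.07 (adjusted p = 0.677) at 48 h and -0.19 (adjusted p = 0.231) at 7 d, no longer called, and -0.63 (adjusted p = 2.49e-05) at 72 h. In IP the sum fell at 7 d by 1.29 (adjusted p = 0.0146) and rose at 1 h by 1.37 (adjusted p = 0.0283) and at 12 h by 1.25 (adjusted p = 0.0294).

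Nefh, the heavy side-arm subunit, was lower than naive at the last 3 times in Input. There it had a lowest value of 2472, a median of 2969 and a highest value of 3252 CPM at 12 h, a lowest value of 1189, a median of 1431 and a highest value of 1507 CPM at 72 h and 1434, 1317, 1454 and 1435 CPM at 7 d. Naive Input had a lowest value of 1842, a median of 2493 and a highest value of 2779 CPM. All 7 libraries at 72 h and all 4 at 7 d lay below every naive library, while the 12 h libraries overlapped naive from above. Nefh rose at 12 h by 0.30 ± 0.09 (adjusted p = 0.0486), a call lost in 7 of 13 alternatives and in 27 of 40 refits without 1 library. It fell at 48 h by 0.34 ± 0.09 (adjusted p = 0.00437), at 72 h by 0.77 ± 0.09 (adjusted p = 5.25e-09) and at 7 d by 0.72 ± 0.11 (adjusted p = 3.32e-07) on the log2 scale, the last 2 being 1.71-fold and 1.65-fold lower than naive. These 3 falls kept their call in all 13 alternatives and in each refit without 1 library.

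In IP, Nefh had 1752, 1636, 2162 and 1588 CPM at 7 d, against a lowest value of 2325, a median of 2585 and a highest value of 6686 CPM in naive libraries. The 7 d libraries lay below all of naive, whose own values spread widely. Nefh fell by 1.12 ± 0.30 (adjusted p = 0.00582) on the log2 scale, 2.17-fold, a call that held in all 14 alternatives and in each refit without 1 library, with -1.43 (adjusted p = 0.00262) with the rRNA share as a covariate. That covariate value extrapolates the slope, since the 7 d shares lay below all naive ones. At 12 h it rose by 0.93 ± 0.25 (adjusted p = 0.0379), from libraries with a lowest value of 1953, a median of 7593 and a highest value of 9925 CPM. That call was lost in 8 of 14 alternatives and in 27 of 39 refits without 1 library, and the lowest 12 h value was again replicate 3. At 1 h IP had 6464, 7929.6, 5702, 6401 and 8416 CPM, and the change of 0.95 ± 0.26 (adjusted p = 0.0544) was not called. At 72 h the change was -0.59 ± 0.24 (adjusted p = 0.263). Ap1b1, a clathrin adaptor subunit whose gene overlaps Nefh, had Input changes of 0.58 ± 0.17 (adjusted p = 0.0261) at 1 h, -0.47 ± 0.15 (adjusted p = 0.0218) at 72 h and 0.16 ± 0.18 (adjusted p = 0.477) at 7 d.

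Ina, alpha-internexin, was higher than naive at 7 d in both fractions. At 7 d IP had 78.1, 83.0, 72.8 and 67.8 CPM, against a lowest value of 9.95, a median of 23.0 and a highest value of 35.6 CPM in naive IP. Input had 90.5, 83.1, 77.2 and 74.1 CPM at 7 d, against a lowest value of 25.2, a median of 46.1 and a highest value of 59.6 CPM in naive Input. In both fractions all 4 libraries at 7 d lay above all 7 naive ones. Ina rose by 1.79 ± 0.30 (adjusted p = 1.98e-05) in IP, 3.46-fold, and by 0.92 ± 0.19 (adjusted p = 5.38e-05) in Input, 1.89-fold. The IP call held in all 14 alternatives and in each refit without 1 library, with 1.52 (adjusted p = 0.00318) with the rRNA share as a covariate. The Input change with that covariate was 0.40 (adjusted p = 0.073), no longer called. Both covariate values extrapolate the slope, since the 7 d shares lay below all naive ones. Earlier, Ina rose in Input by 0.55 ± 0.18 (adjusted p = 0.0396) at 1 h and 0.53 ± 0.17 (adjusted p = 0.0119) at 48 h. The 1 h call was lost in 6 of 13 alternatives and in 7 of 40 refits without 1 library, and the 48 h call in 2 of 13 alternatives. In IP the changes between 1 h and 72 h lay between 0.49 and 0.97, none called. At 24 h IP had 47.8, 52.1, 46.4 and 20.5 CPM, with replicate 4 well below the other 3. Nt5c2, a nucleotidase gene that overlaps Ina, rose in Input by 0.54 ± 0.17 (adjusted p = 0.0103) at 48 h and 0.86 ± 0.18 (adjusted p = 0.000111) at 7 d, and in IP its 7 d change was 0.18 ± 0.29 (adjusted p = 0.683).

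Prph, peripherin, was called in 1 of its 12 comparisons with naive. IP had 2226, 2446, 2833 and 2626 CPM at 7 d, against a lowest value of 1255, a median of 1617 and a highest value of 2333 CPM in naive IP, with overlapping ranges and a change of 0.54 ± 0.22 (adjusted p = 0.0728) that was not called, though it was in 5 of 14 alternatives. The 95% interval of that change ran from 0.10 to 0.98. Input had 1772, 2196, 2272 and 1782 CPM at 7 d, against a lowest value of 2179.7, a median of 2617 and a highest value of 2952 CPM in naive Input. The 7 d libraries split into a pair within the naive range and a pair below it, and Prph fell by 0.32 ± 0.12 (adjusted p = 0.0226) on the log2 scale. That call was lost in 2 of 13 alternatives, at adjusted p up to 0.313, and in 3 of 40 refits without 1 library. At 24 h the changes were 0.47 ± 0.22 (adjusted p = 0.285) in IP and 0.24 ± 0.11 (adjusted p = 0.153) in Input. In IP Prph moved with the rRNA share by -0.24 ± 0.04 (adjusted p = 1.87e-05) for each doubling, opposite to Nefm, and with the share as a covariate its 7 d change in IP was -0.09 (adjusted p = 0.882). That covariate value extrapolates the slope below the naive shares.

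Between pairs of injured times, 24 of 75 differences were called in IP, 21 of them lower at the later time, where 5.83% of all gene and pair combinations were called. In Input 32 of 75 were called, 28 lower at the later time, where the share over all genes was 24.8%. In IP, Nefl at 72 h against 1 h differed by -1.92 ± 0.24 (adjusted p = 1.17e-07) and at 7 d against 72 h by 1.12 ± 0.25 (adjusted p = 0.00224), so that it was lower at 72 h than at both ends of the series. In Input the same 7 d against 72 h difference was 0.98 ± 0.22 (adjusted p = 0.000288). For Nefm in IP the 7 d against 1 h difference was -2.98 ± 0.47 (adjusted p = 1.74e-05). For Nefh in Input the 72 h against 12 h difference was -1.07 ± 0.09 (adjusted p = 3.2e-12).

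The levels over the whole series were ordered by group mean, and of 60 neighbouring pairs in that order over both fractions, 3 were called. Neighbours are close in mean by the way they were picked, and no share over all genes was computed for such pairs. The count therefore only says which steps in the order passed the threshold. Median Nefl levels in CPM were 2385 (naive), 5459 (1 h), 6064 (12 h), 4701 (24 h), 3729 (48 h), 1810.4 (72 h) and 3904 (7 d) in IP, and 3388 (naive), 7134 (1 h), 5605 (12 h), 5068 (24 h), 5886 (48 h), 2786 (72 h) and 5588 (7 d) in Input. By group mean, highest first, the order of Nefl was 1 h, 12 h, 24 h, 7 d, 48 h, naive and 72 h in IP and 1 h, 48 h, 7 d, 12 h, 24 h, naive and 72 h in Input. The 72 h group was at the bottom of both orders and the 1 h group at the top. Median Nefm levels in CPM were 5240.0 (naive), 17014 (1 h), 14989 (12 h), 8052 (24 h), 5969 (48 h), 3079.9 (72 h) and 1874 (7 d) in IP, and 3056 (naive), 3153 (1 h), 3404 (12 h), 2931 (24 h), 2403 (48 h), 1897 (72 h) and 2004 (7 d) in Input. By group mean, highest first, the order of Nefm was 1 h, 12 h, 24 h, 48 h, naive, 72 h and 7 d in IP and 12 h, 1 h, 24 h, naive, 48 h, 7 d and 72 h in Input. The called neighbours of Nefm were 48 h, lower than naive, in Input. Median Nefh levels in CPM were 2585 (naive), 6464 (1 h), 7593 (12 h), 6253 (24 h), 2904 (48 h), 2229 (72 h) and 1694 (7 d) in IP, and 2493 (naive), 2829 (1 h), 2969 (12 h), 2566 (24 h), 1928 (48 h), 1431 (72 h) and 1435 (7 d) in Input. By group mean, highest first, the order of Nefh was 1 h, 12 h, 24 h, naive, 48 h, 72 h and 7 d in IP and 12 h, 1 h, 24 h, naive, 48 h, 7 d and 72 h in Input. In Input Nefh was lower at 48 h than in naive libraries and lower at 7 d than at 48 h, and these neighbours were called.

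Median Prph levels in CPM were 1617 (naive), 1916 (1 h), 1942 (12 h), 2332 (24 h), 1623 (48 h), 2178 (72 h) and 2536 (7 d) in IP, and 2617 (naive), 2714 (1 h), 2720.3 (12 h), 3107 (24 h), 2442 (48 h), 2492 (72 h) and 1989 (7 d) in Input. By group mean, highest first, the order of Prph was 7 d, 24 h, 72 h, 12 h, 1 h, 48 h and naive in IP and 24 h, 12 h, 1 h, naive, 72 h, 48 h and 7 d in Input. No neighbours of Prph were called, and its order differed between the fractions in the place of 7 d, first in IP and last in Input. Median Ina levels in CPM were 23.0 (naive), 38.4 (1 h), 27.5 (12 h), 47.1 (24 h), 37.4 (48 h), 30.6 (72 h) and 75.5 (7 d) in IP, and 46.1 (naive), 62.4 (1 h), 60.8 (12 h), 50.1 (24 h), 64.2 (48 h), 58.5 (72 h) and 80.1 (7 d) in Input. By group mean, highest first, the order of Ina was 7 d, 24 h, 48 h, 1 h, 12 h, 72 h and naive in IP and 7 d, 1 h, 48 h, 72 h, 12 h, 24 h and naive in Input. No neighbours of Ina were called, although 7 d came first in both fractions and naive last.

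Ratios within a library show whether the subunits' counts kept step, since the scaling of the library cancels. A link with the rRNA share need not cancel. The log2 change per doubling of that share was 0.05 (Nefl), 0.50 (Nefm), -0.13 (Nefh), -0.24 (Prph) and -0.10 (Ina) in IP. In Input it was -0.39 (Nefl), 0.05 (Nefm), 0.02 (Nefh), 0.06 (Prph) and -0.22 (Ina). No ratio was fitted with the share as a covariate, and its part in the ratios was not tested. The log2 ratio of Nefm, Nefh, Prph and Ina counts to Nefl counts (pseudocount 0.5) was compared with naive by an exact two-sided permutation test, with Benjamini-Hochberg adjustment over the 48 tests, of which 11 passed, 5 in IP and 6 in Input. The smallest p that a test could give lay between 0.000583 and 0.00303. At 7 d the Nefm to Nefl ratio was -1.11 ± 0.59 in IP (SD, n = 4), against 0.98 ± 0.32 in naive IP (SD, n = 7), a difference of -2.09 (adjusted p = 0.0208) in the exact test. The Nefh to Nefl ratio differed by -1.43 (adjusted p = 0.0208) in IP and -1.32 (adjusted p = 0.0208) in Input, and the Nefm ratio in Input by -1.16 (adjusted p = 0.0291), all exact. Of these 4 differences, 2 were called in each of 5 alternatives. Against the summed counts of the 5 members as denominator the Nefh ratio in IP differed by -0.53 (adjusted p = 0.0727), and with A230070E04Rik added to Nefm the Nefm ratio in Input had an adjusted p of 0.0529, neither called by the exact test. At 48 h in Input the differences were -0.95 (adjusted p = 0.028) for Nefm, -0.98 (adjusted p = 0.014) for Nefh and -0.75 (adjusted p = 0.0458) for Prph. The Prph call was lost in 2 of 5 alternatives, with -0.20 (adjusted p = 0.137, exact) against the summed counts. At 72 h, where Nefl had its lowest mean in both fractions, ratios of the other pair were higher. In IP Prph differed by 1.01 (adjusted p = 0.014) and Ina by 1.29 (adjusted p = 0.014), and in Input Ina by 0.85 (adjusted p = 0.014). The levels of these genes against naive were not called by edgeR there, with 0.27 (adjusted p = 0.653) and 0.49 (adjusted p = 0.486) in IP and 0.42 (adjusted p = 0.0533) for Ina in Input. At 7 d in IP the Ina difference was 1.50 (adjusted p = 0.0291). None of the 24 ratios at 1 h, 12 h and 24 h passed, of which 6 had an unadjusted exact p under 0.05.

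**Figure D4:**
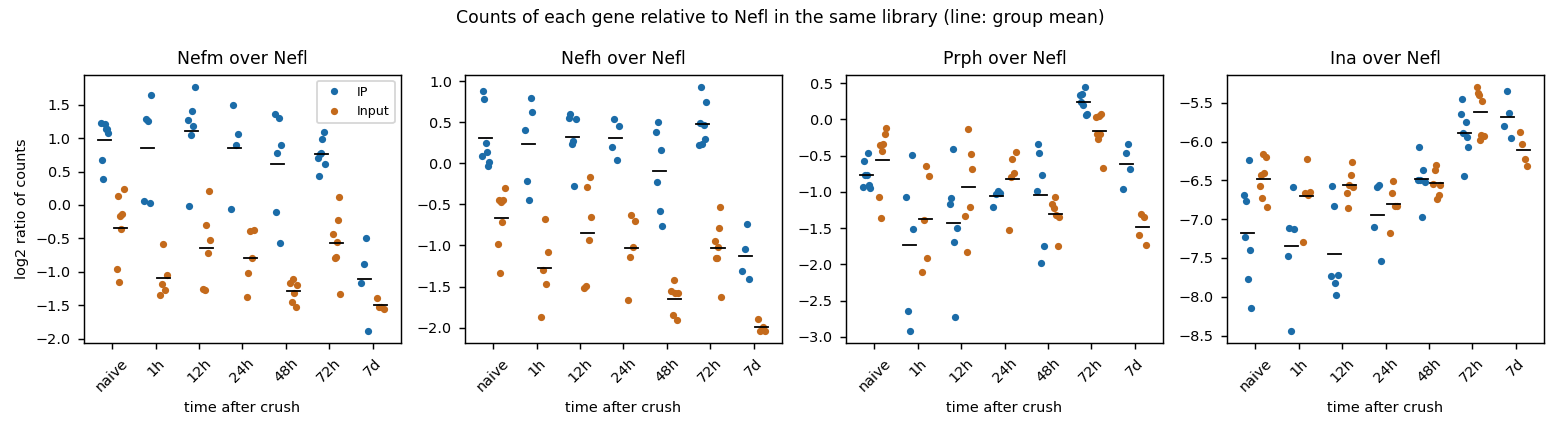
Log2 ratio of each member's counts to Nefl counts within a library (y axis) by time (x axis), IP in blue left of Input in orange, 1 point per library with the group mean as a line. Nefm and Nefh lie lowest at 7 d in IP and in Input.

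Between the fractions, 22 of 35 differences were called, 12 higher and 10 lower in IP than in Input. In naive animals 4 of 5 members differed, beside 46.6% of all genes. At the injured times the numbers were 3 (1 h, beside 38.6% of genes), 4 (12 h, 49%), 2 (24 h, 33%), 5 (48 h, 47.9%) and 4 (72 h, 46.5%). At 7 d edgeR called none, with 0 at an unadjusted p under 0.05 and 0 in DESeq2, where 11.4% of genes were called. Nefm and Nefh were higher in IP at every time from naive to 72 h. The Nefm call was lost in 1 of 13 alternatives at each of naive, 48 h and 72 h, at adjusted p up to 0.0618, 0.0915 and 0.0888. Its 1 h value lay between 0.49 and 2.32 over the 13 alternatives, all called. The Nefh calls held in all 13. The naive call of Nefh and the 72 h call of Nefm did not hold in each refit without the libraries of 1 number. Nefm averaged 13392 ± 8420.4 CPM in IP at 1 h (SD, n = 5) and 3157 ± 338 CPM in Input (SD, n = 5), a difference of 2.08 ± 0.30 (adjusted p = 5.8e-08), and in naive animals 0.87 ± 0.25 (adjusted p = 0.00288). Nefh differed by 1.34 ± 0.24 (adjusted p = 7.5e-06) at 1 h. Ina was lower in IP in naive animals (-1.06 ± 0.24, adjusted p = 0.000195) and at 1 h, 12 h, 48 h and 72 h, Prph in naive animals (-0.61 ± 0.17, adjusted p = 0.00306) and at 12 h and 48 h, and Nefl at 48 h and 72 h. At 7 d the differences lay between -0.53 and 0.34, with 95% intervals from -1.11 to 0.88. At 72 h and 7 d, where libraries with the same number deviated together, the differences were also read within the numbered pairs. No label gives this pairing, which is an assumption. For 72 h replicate 5 and 7 d replicate 2, IP and Input differed in whether Xist or Ddx3y was higher. At 7 d Nefh and Prph were higher in IP in 4 of 4 pairs, Nefl and Ina were lower in 4 of 4, and Nefm was lower in 3 of 4. With the pairs as a replicate block no member was called at 7 d, with -0.54 (adjusted p = 0.148) for Nefl, 0.33 (adjusted p = 0.446) for Nefh and 0.34 (adjusted p = 0.395) for Prph. At 72 h each member had 1 direction in 7 of 7 pairs, Nefm and Nefh higher and Nefl, Ina and Prph lower in IP, and with the block the same 4 members were called, with -0.30 (adjusted p = 0.19) for Prph. The median rRNA share was 32.1% in IP and 14.9% in Input in naive libraries, and 3.51% in IP and 2.15% in Input at 7 d. In the fit with that share as a covariate 17 of 35 differences were called, 16 of them among the 22.

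**Figure D5:**
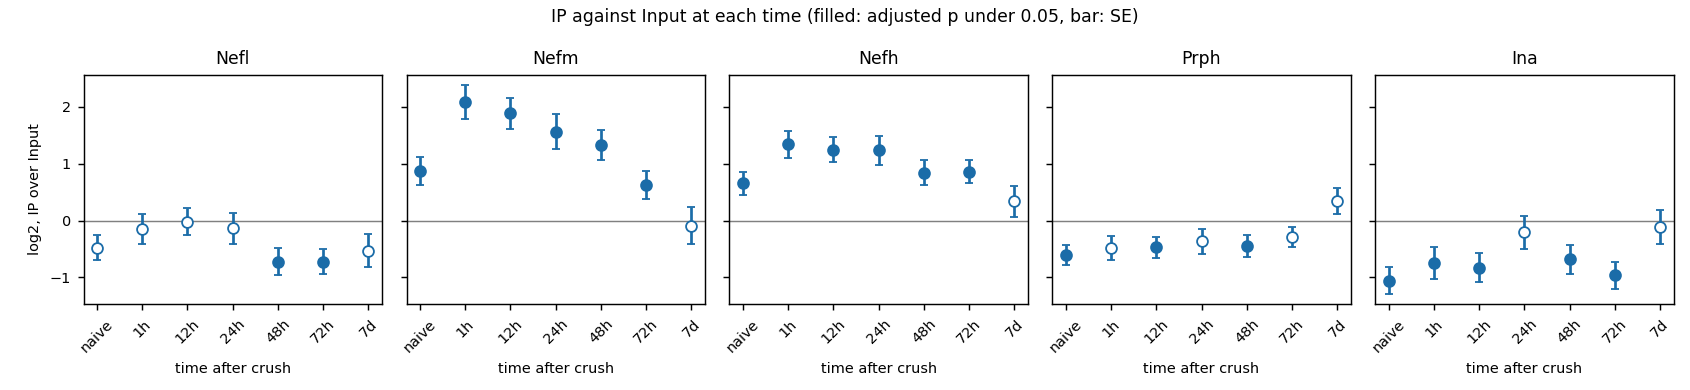
Log2 difference of IP over Input (y axis) by time (x axis) for each member, filled where called, with the SE as a bar. Nefm and Nefh lie above 0 from naive to 72 h, Ina lies below 0, and the 5 values at 7 d lie between -0.53 and 0.34.

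Whether the response to crush differed between the fractions was tested as the IP change minus the Input change. Over the 6 times together only Nefm passed (adjusted p = 0.00153), where 8.28% of genes did. At single times edgeR called no member at 1 h, 12 h, 24 h, 48 h or 72 h, where 0.0102%, 0.0153%, 0.0102%, 0.0204% and 0% of genes were called. At those times 2, 1, 1, 0 and 0 members had an unadjusted p under 0.05, and DESeq2 called 1 at 1 h and 0 at the others. At 7 d 1 member was called, beside 12.4% of genes: the Prph response was 0.95 ± 0.29 (adjusted p = 0.0208) higher in IP. With the rRNA share as a covariate this was 0.06 (adjusted p = 0.967), an extrapolation below the naive shares, and with only libraries under 15% rRNA 0.54 (adjusted p = 0.153). With the numbered pairs as a replicate block it was 0.99 (adjusted p = 0.0277), and the Ina response was called too, at 1.02 (adjusted p = 0.024) higher in IP against 0.95 ± 0.38 (adjusted p = 0.087) without the block, although only 1 of 7 naive pairs correlated over 0.1 in their deviations. The largest response difference of Nefm was 1.21 ± 0.38 (adjusted p = 0.226) at 1 h.

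The deposited table of counts per short genomic interval gave a view of where reads fell within the members. Of its 205981 intervals, 11 lay within the 5 genes, 5 in Nefl, 1 each in Nefm, Nefh and Prph, and 3 in Ina, and 1 carried a repeat name (Low_complexity, in Nefl). Counts per 100 counts of the gene were lowest at 7 d for 8 of the 11 in IP and 10 of the 11 in Input. For the Prph interval at chr15:99058919-99058950, near the end of the gene's span, they were 11.4 ± 2.15 in IP at 7 d (SD, n = 4) and 40.1 ± 11.9 in naive IP (SD, n = 7). For the third Nefl interval the values were 5.25 ± 1.32 in IP at 7 d and 27.8 ± 6.80 in naive IP, and 3.11 ± 0.138 in Input at 7 d and 15.4 ± 7.59 in naive Input (SD, n = 4 and 7). The placement of reads and the rRNA share thus moved together with the 7 d results, and the part of read placement in them was not tested.

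Other intermediate filament genes moved in their own ways. Of the 18 tested in IP, 1 rose at 24 h, 1 at 72 h and 3 at 7 d, when 1 fell, beside 1.88%, 2.56% and 20.8% of all genes called. In Input 3 of 17 rose and 0 fell at 24 h, 5 of 17 rose and 2 fell at 72 h and 6 of 17 rose and 5 fell at 7 d, beside 11.6%, 23.4% and 53.5% of all genes. Vim, vimentin, rose in IP at 24 h by 1.24 ± 0.18 (adjusted p = 1.35e-05) and in Input by 0.75 ± 0.11 (adjusted p = 2.48e-06). Gfap, the filament of activated glia, rose in Input by 3.10 ± 0.45 (adjusted p = 1.97e-06) at 24 h and 3.00 ± 0.47 (adjusted p = 6.52e-07) at 7 d, and in IP by 3.49 ± 1.08 (adjusted p = 0.0178) at 7 d. The IP levels were low and uneven, at 11.4 ± 15.2 CPM at 7 d (SD, n = 4) and 0.971 ± 1.81 CPM in naive libraries (SD, n = 7). Lmna, which encodes the nuclear lamins A and C, rose at 7 d by 1.54 ± 0.31 (adjusted p = 0.000248) in IP and 0.75 ± 0.15 (adjusted p = 2.84e-05) in Input. Nes, nestin, fell in IP at 7 d by 1.64 ± 0.40 (adjusted p = 0.00288), and Synm, synemin, fell in Input at 72 h by 0.56 ± 0.09 (adjusted p = 3.75e-06) on the log2 scale.

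Among 16 linkers, chaperones and turnover factors of neurofilaments, 3 rose at 24 h, 2 at 72 h and 5 at 7 d in IP, when 1 fell, and 3, 3 and 7 rose in Input, when 4 fell at 7 d. The shares of all genes called at these times were 1.88%, 2.56% and 20.8% in IP and 11.6%, 23.4% and 53.5% in Input. Plec, plectin, which ties intermediate filaments to other filaments, rose in IP at 24 h by 0.90 ± 0.18 (adjusted p = 0.00147). Hspb1, a small heat shock protein that keeps filaments from aggregating, rose in Input by 1.29 ± 0.15 (adjusted p = 1.1e-08) at 24 h and 1.37 ± 0.14 (adjusted p = 1.72e-10) at 72 h, and in IP by 1.43 ± 0.39 (adjusted p = 0.0364) at 72 h. Capn2, a calpain protease that can cut neurofilaments, rose in IP at 7 d by 1.35 ± 0.22 (adjusted p = 1.23e-05). Tardbp, an RNA-binding protein that binds Nefl mRNA, fell at 7 d by 1.05 ± 0.22 (adjusted p = 0.000405) in IP and 1.08 ± 0.16 (adjusted p = 3.05e-07) in Input.

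Of 21 kinases and phosphatases that act on neurofilament tails or are linked to them, 1 fell at 72 h in IP and 5 fell in Input, beside 2.56% and 23.4% of all genes called. At 7 d 7 rose and 5 fell in IP, beside 20.8% of all genes, and 7 rose and 8 fell in Input, beside 53.5%. Camk2b, a calcium-dependent kinase, fell at 72 h by 0.93 ± 0.25 (adjusted p = 0.0319) in IP and 0.96 ± 0.12 (adjusted p = 1.84e-08) in Input. Ppp2ca, the catalytic subunit of protein phosphatase 2A, rose at 7 d by 1.18 ± 0.22 (adjusted p = 8.52e-05) in IP. Of 17 motor genes for axonal transport, 5 rose at 1 h and 6 at 12 h in IP, with none falling, beside 1.2% and 1.67% of all genes. At 7 d 6 rose and 2 fell in IP, beside 20.8%, and 6 rose and 6 fell in Input, beside 53.5%. Kif5c, a kinesin heavy chain, rose in IP at 24 h by 1.00 ± 0.25 (adjusted p = 0.0182), and Dync1h1, the dynein heavy chain, fell in IP at 7 d by 1.18 ± 0.25 (adjusted p = 0.000472).

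Markers of cell types moved at the same times as the members. At 72 h in Input, where Nefm and Nefh were lower, 13 of 16 genes of large myelinated neurons fell and 0 rose, beside 23.4% of all genes called (median log2 change -0.78, against -0.01 over all genes), and their sum was 984 to 1172 CPM at 72 h against 1518 to 1756 CPM in naive Input. Kcna2, a potassium channel of large neurons, fell there by 1.28 ± 0.11 (adjusted p = 1.52e-12). Nociceptor genes fell too, 10 of 16 with 2 rising. Macrophage genes rose, 10 of 13 with 0 falling, and summed to 569 to 882 CPM at 72 h against 258 to 681 CPM in naive Input. The pan-neuronal list had 4 rising and 3 falling of 16, with Stmn2, a tubulin-binding protein of growing axons, higher by 0.98 ± 0.09 (adjusted p = 2.05e-11).

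At 7 d in Input the large-neuron list was split, with 6 of 16 rising and 5 falling where 53.5% of all genes were called, and Pvalb, parvalbumin of proprioceptors, fell by 2.18 ± 0.21 (adjusted p = 1.03e-11). The nociceptor list had 10 of 16 rising and 1 falling, the macrophage list 7 of 13 rising and 0 falling, and the Schwann list 5 of 12 rising and 1 falling, the last 2 with shares called near that of all genes. In IP at 7 d, where 20.8% of all genes were called, 3 of 16 large-neuron genes rose and 2 fell, and 5 of 16 pan-neuronal genes rose and 0 fell. In IP at 7 d the Schwann genes had 1 of 12 rising and 4 falling, satellite glia genes 1 of 10 and 3, and fibroblast genes 0 of 10 and 4. The glial markers summed in IP at 7 d to 3434 to 4614 CPM for satellite glia against 2298 to 4315 CPM in naive IP, and to 2505 to 3440.1 CPM for Schwann cells against 3355 to 9356 CPM in naive IP. None of the markers of these lists found in the table was at 0 across a group named here, and the part of cell makeup in the members' results was not tested.

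As a description, with no test, the log2 levels of Nefm and Nefh had a Pearson's r of 0.74 over 39 IP libraries and 0.94 over 40 Input libraries. Nefl went with Nefh at 0.73 in IP and 0.41 in Input, and with Nefm at 0.66 and 0.33. Prph and Ina went together in IP at 0.56, and Nefm and Prph at -0.37. These values share time, rRNA share and scaling. Among 11744 genes with a mean of at least 5 CPM in IP, those with the highest r were Nedd4 (0.84), Rgs7bp (0.84) and Kif5a (0.83) for Nefl, Chd3 (0.92), Pcm1 (0.92) and 2610027K06Rik (0.92) for Nefm, Ttc3 (0.93), Map1a (0.91) and Cplx2 (0.90) for Nefh, Camk2g (0.90), Ppm1j (0.89) and Tppp3 (0.89) for Prph and Rab15 (0.82), Zwint (0.80) and Fbxl16 (0.79) for Ina. Among 11190 such genes in Input they were A230070E04Rik (0.97), Trnt1 (0.95) and Crbn (0.93) for Nefl, Myh10 (0.91), Strbp (0.88) and Kif3a (0.88) for Nefm, Rgs7bp (0.94), Myh10 (0.92) and Fam81a (0.91) for Nefh, Qdpr (0.88), Ndufs7 (0.87) and Pgp (0.86) for Prph and 1810026J23Rik (0.87), Med25 (0.86) and Akt1 (0.86) for Ina.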

How the data were processed

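RNA was measured in 79 libraries. Per the labels' protocols, the kits were SMART-Seq v4 and Nextera XT, with paired 75 bp reads from 1 lane. Per the submitters' processing notes, the tools were STAR, HTSeq and bcl2fastq 2.17, with builds GRCm38 and mm10. Strandedness and the handling of multi-mapping reads were not stated. The authors deposited raw read counts per gene symbol and per short genomic interval. The 27 symbols that had become dates, with 0.0346% to 0.214% of the counts of a library, were left out of 24060.

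Counts were filtered (filterByExpr), scaled by TMM and fitted in edgeR 4.0.16 under R 4.3.3, with 1 fit of 7 groups per fraction and 1 of all 14 groups for comparisons between fractions. The quasi-likelihood test used gene-wise robust dispersions, a form chosen after earlier results were known. Simulated counts were fitted here with this form only, so they do not compare it with the newer form. Calls use a Benjamini-Hochberg adjusted p under 0.05. Log2 CPM used a prior count of 2. Ratios were tested by exact permutation. The members and all gene lists were chosen with earlier results of these data known. From each list, fraction and time (24 h, 72 h and 7 d) up to 3 called genes with the smallest adjusted p could be named, and the text names some of them, since some are not reported here; the genes that overlap a member were chosen after the annotation was seen. Genes most like a member were the 3 with the highest Pearson's r of log2 CPM over the libraries of a fraction. Alternatives were other scaling, filters, tools, covariates and left-out libraries, with DESeq2 1.42.0 and limma 3.58.1. No 2 libraries of a group were identical among 192 such pairs, whose chi-square was at least 9.19 for each degree of freedom. Deviations from group means of same-numbered IP and Input libraries correlated over 0.1 in each of 7 pairs at 72 h (0.14 to 0.21) and each of 4 pairs at 7 d (0.11 to 0.33), so the numbers were taken as pairs there, from the data and not from a label. At the other times only 11 of 28 pairs did, and they were not. For 72 h replicate 5 and 7 d replicate 2, IP and Input differed in whether Xist or Ddx3y was higher, so their pairing is uncertain. Libraries of 1 number and fraction at different times correlated from -0.32 to 0.52 in IP and from -0.63 to 0.68 in Input. The values at 72 h and 7 d lie within these ranges, so they do not establish pairs. The best match in Input had the same number for 6 of 7 IP libraries at 72 h and 4 of 4 at 7 d.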

Additional observations from a re-analysis of the deposited data

Results flagged for a closer look

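Of 70 groups of libraries (5 genes in 14 groups), 6 held 1 library that stood apart from the rest by Dixon's criterion, where chance gives about 1 group in 20. In IP at 12 h, replicate 3 was low for both Nefl and Nefh. Its Nefl level was 1656 CPM, with the nearest library of its group at 4819.6 CPM, and its Nefh level was 1953 CPM, with the nearest library of its group at 6017 CPM. Ina in IP at 24 h was low in replicate 4, at 20.5 CPM, with the nearest library of its group at 46.4 CPM. Nefm in naive IP was high in replicate 7, at 6827 CPM, with the nearest library of its group at 5557 CPM. In Input, Nefh at 7 d was low in replicate 2, at 1317 CPM, with the nearest library of its group at 1434 CPM, and Prph at 48 h in replicate 5, at 1963 CPM, with the nearest library of its group at 2389.6 CPM.

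The response of Prph at 7 d differed between the fractions: the IP change minus the Input change was 0.95 (adjusted p = 0.0208, edgeR quasi-likelihood). Prph had 2226, 2446, 2833 and 2626 CPM in IP at 7 d, with 1255 to 2333 CPM in naive IP, and 1772, 2196, 2272 and 1782 CPM in Input at 7 d, with 2179.7 to 2952 CPM in naive Input.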

How the results depend on the processing

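Of 1895 recomputed values 1766 kept their side of the threshold, with the same direction where called. Values called in neither run could change sign, such as Nefm in IP at 1 h (1.36 as reported, -0.22 at the lowest). The 6 calls against naive in IP became 12 with DESeq2, 10 with the newer quasi-likelihood form of edgeR, 10 with the rRNA share as a covariate and 3 with only libraries under 15% rRNA. The 14 calls in Input became 8 with only libraries under 15% rRNA. In IP that limit left only 2 (naive), 2 (1 h), 1 (12 h), 1 (24 h), 3 (48 h), 3 (72 h) and 4 (7 d) libraries. The single call among response differences became 3 with DESeq2, 2 with a glial marker covariate, 0 with the rRNA covariate and 2 with only libraries under 15% rRNA. The rRNA covariate, the limit of 15% rRNA, the newer edgeR form and the sum with A230070E04Rik were chosen after seeing the data. Leaving out 1 library at a time gave ranges of 4 to 11 calls in IP, 10 to 17 in Input and 9 to 16 for ratios. In the fit over both fractions, all libraries of 1 replicate number were left out at a time. That gave 17 to 22 calls between the fractions and 0 to 1 for response differences. The IP count of 11 came without 12 h replicate 3, when the 12 h changes were 1.19 for Nefl, 1.44 for Nefm and 1.12 for Nefh. The response call was lost without the libraries numbered replicate 1, 4 or 6. Ratios to the summed counts of the 5 members gave 14 calls against 11 for ratios to Nefl, with 9 shared.

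Among values called as reported or in the alternative run, the sign turned in 4 cases. With the rRNA covariate this was Nefl in Input at 7 d (-0.36, adjusted p = 0.027). With only libraries under 15% rRNA, Prph and Ina in IP against Input at 12 h turned (0.16 and 0.043), where 1 IP and 4 Input libraries were left at 12 h. The last was the Ina ratio in Input at 48 h with the summed denominator (0.49, exact permutation, adjusted p = 0.00799). The causes were not tested. Of the calls, 2 of 6 in IP, 4 of 14 in Input, 11 of 22 between fractions and 0 of 1 response differences held in each alternative run. With a replicate block (for IP against Input, time and number) the counts were 6 in IP (6 shared), 11 in Input (10 shared), 22 between fractions and 2 for response differences. Between the fractions the block changed no call of a member. At naive, 1 h, 12 h, 24 h and 48 h, where not every same-numbered pair correlated over 0.1, its values are only an alternative. Leaving out libraries over 50% rRNA was not run for Input, which has none. Depth limits Ina, which had as few as 32 counts in an IP library.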
